A study of Mus musculus with 7 samples.

Results

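High-voltage calcium channels were examined through 10 genes, chosen by name as a family of subunits, of the 24062 gene symbols in the count files. They comprised the pore-forming subunits Cacna1a, Cacna1b, Cacna1c, Cacna1d and Cacna1e, the beta subunits Cacnb3 and Cacnb4, and the alpha2delta subunits Cacna2d1, Cacna2d2 and Cacna2d3. RNA came from neurons of brain slices from Esr1-ZsGreen mice, a transgenic line on a C57BL/6J background in which the fluorescent protein ZsGreen marks cells that use the promoter of Esr1, the gene of estrogen receptor alpha. According to the methods, the slices held the medial preoptic area (MPA), a hypothalamic region that takes part in thermoregulation, and the mice were adult females. During whole-cell recording the slice was warmed by 5 °C, and the contents of 2 ZsGreen positive neurons with a like response in firing were aspirated through the pipette and pooled. The 4 temperature-responsive samples held neurons that answered the rise in temperature, and the 3 non-responsive samples held ZsGreen positive neurons that did not. Both groups shared the reporter and the warming, so no group was left at the lower temperature.

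High-voltage-activated channels open upon strong depolarization and let calcium into the neuron, where it triggers transmitter release, shapes firing and signals to the nucleus. The alpha1 subunit forms the pore and sets the channel type, with P/Q-, N- and R-type channels found mostly at release sites and dendrites and L-type channels mostly at cell bodies and dendrites. A cytoplasmic beta subunit brings the pore to the membrane and tunes its gating, and an extracellular alpha2delta subunit increases the number of channels at the surface and is the binding site of gabapentin for some of its forms.

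Temperature-responsive samples held between 1914497 and 2814360 counts and 19852 to 21177 genes detected, and non-responsive samples between 3309361 and 5125280 counts and 17818 to 19820 genes, with no overlap in either measure. The summed level of 5 neuronal markers lay at 2260 to 2790 CPM in all samples, CPM being counts divided by the library total after TMM scaling, with 1 of 5 higher and 2 lower (Snap25 0.50, Rbfox3 -0.38 and Tubb3 -0.24 on the log2 scale), and Esr1 itself had 10 to 27 counts. Markers of other cells were present as well. The 5 astrocyte markers summed to between 1080 and 1250 CPM in temperature-responsive and 879 to 1070 CPM in non-responsive samples, and the 5 oligodendrocyte markers to between 2770 and 3780 against 2360 to 2980 CPM, with 2 of 5 higher and 1 lower in each list. The 5 endothelial markers summed to between 93.1 and 315 CPM in temperature-responsive and 17.9 to 64.5 CPM in non-responsive samples, with 2 of 5 higher, and the 5 smooth muscle and pericyte markers summed to between 46.9 and 203 CPM against 29.7 to 37.2 CPM, with 3 of 5 higher. Microglia markers summed to between 271 and 306 CPM against 306 to 325 CPM, with 1 of 5 higher and 1 lower. Oligodendrocyte precursor markers summed to 326 to 387 against 350 to 360 CPM, with 1 of 5 lower. Choroid plexus markers summed to 294 to 388 against 252 to 334 CPM, with 1 of 5 higher. Cortical and hippocampal neuron markers stood at 340 to 506 against 462 to 490 CPM, with 0 of 5 called. Cerebellar neuron markers stood at 33.4 to 39.1 against 33.4 to 39.4 CPM. No marker in these lists was at 0 in every sample. Olfactory receptor genes, 1122 in number, summed to between 345 and 817 CPM against 45.2 to 251 CPM. The Y-linked gene Ddx3y had 684 to 1150 counts and Xist 2 to 14 in each sample, which goes against the female mice of the methods. The part of these differences in the results on calcium channels was not tested. Each sample was to hold the contents of 2 neurons. How much of a transcript came from them or from other cells, and how much RNA each cell gave, cannot be told apart.

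All 10 subunit genes passed the filter of at least 10 counts in at least 3 samples, with 42 to 1936 counts in a sample. Cacnb3, Cacna1d and Cacna2d3 were lower in temperature-responsive samples, and no member was higher (edgeR, quasi-likelihood F test, Benjamini-Hochberg adjusted over 14407 genes, threshold 0.05). The same 3 and 0 members had an unadjusted p under 0.05. DESeq2 called 2 members, both lower, and limma-voom called 3. Over all genes tested, 30.0% were called, 14.9% lower and 15.1% higher, so that 3 of 10 members is the share found among all genes and not a result about this family. The balance of directions over all genes moved with the scaling, from 2176 higher and 2151 lower to 2634 and 1608 with upper quartile normalization, 1890 and 2597 with library size only and 1379 and 2254 with an offset for GC content. The groups did not overlap, with the temperature-responsive samples lower, for 2 members and for 18.6% of all genes, and with these samples higher for 0 members and for 16.8% of all genes. The median log2 fold change was -0.15 over the members and 0.01 over all genes, with 7 members below 0 and 3 above. The plot of normalised counts shows the 10 genes in each sample.

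**Figure D1:**
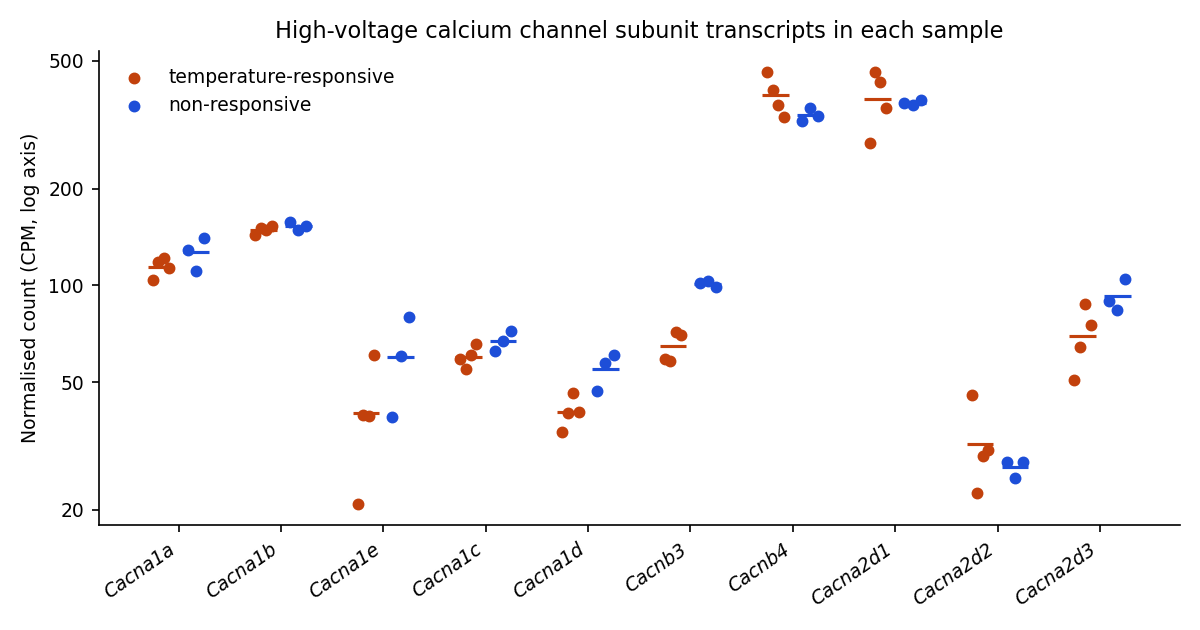
Normalised counts (CPM, log axis) of the 10 subunit genes in each sample, with 4 temperature-responsive samples in orange and 3 non-responsive samples in blue and horizontal lines at the group means. Cacnb3 and Cacna1d did not overlap between groups, and Cacna1e spread over 3.81-fold.

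Release-site pore subunits were not called. Cacna1a, the pore of P/Q-type channels, had 104, 118, 122 and 113 CPM in temperature-responsive replicates 1 to 4 and 129, 111 and 141 CPM in non-responsive replicates 1 to 3. The ranges overlapped, and the log2 fold change was -0.14 (SE 0.106, 95% interval -0.36 to 0.08, adjusted p = 0.338 by edgeR). For Cacna1b, the pore of N-type channels, the values were 144, 151, 149 and 153 CPM against 158, 149 and 153 CPM. It was the steadiest member, with 1.10-fold between the highest and lowest sample, and its log2 fold change of -0.03 had an interval from -0.22 to 0.16 (adjusted p = 0.832 by edgeR).

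Cacna1e, the pore of R-type channels, varied most of the 10 members. Its values were 20.9, 39.6, 39.2 and 60.9 CPM in temperature-responsive replicates 1 to 4 and 39.0, 60.3 and 79.8 CPM in non-responsive replicates 1 to 3. The lowest and highest samples lay in different groups, but the other samples of both groups were interleaved. The log2 fold change was -0.56 (SE 0.342, 95% interval -1.35 to 0.24, adjusted p = 0.263 by edgeR), so that no difference was detectable against this spread. Leaving out temperature-responsive replicate 4, the highest of its group, gave -0.84 with an adjusted p of 0.0183, and leaving out non-responsive replicate 3 gave -0.29 with an adjusted p of 0.615. Retaining all genes with at least 1 count brought it past the threshold at -0.65 (adjusted p = 0.00601).

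L-type pores differed from each other in outcome. Cacna1c, the main L-type pore of brain, heart and smooth muscle, had 59.0, 55.1, 60.6 and 65.5 CPM in temperature-responsive and 62.7, 67.1 and 71.9 CPM in non-responsive samples. The ranges overlapped (log2 fold change -0.15, 95% interval -0.41 to 0.10, adjusted p = 0.369 by edgeR). Cacna1d, whose channels open at less depolarized potentials than those of Cacna1c and contribute to pacemaking, had 34.9, 40.1, 46.4 and 40.3 CPM against 46.8, 57.4 and 60.9 CPM. All 4 temperature-responsive samples lay below all 3 non-responsive samples, although replicate 3 of the first group and replicate 1 of the second were nearly equal. Group means were 40.4 ± 4.74 (SD, n = 4) and 55.0 ± 7.33 CPM (SD, n = 3), a log2 fold change of -0.44 (SE 0.146, 95% interval -0.74 to -0.14, adjusted p = 0.0248 by edgeR). As a share of Cacna1c in the same sample, Cacna1d overlapped between groups. It stood at 59.1, 72.8, 76.6 and 61.5% in temperature-responsive and 74.6, 85.6 and 84.6% in non-responsive samples.

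The call on Cacna1d was lost in 5 of 7 fits that left out 1 sample. Adjusted p values by edgeR rose to 0.0648, 0.0562 and 0.0545 without temperature-responsive replicates 1, 2 and 4, and to 0.0908 and 0.113 without non-responsive replicates 2 and 3, with log2 fold changes of -0.38, -0.43, -0.43, -0.41 and -0.36. Upper quartile normalization gave -0.37 (adjusted p = 0.0549). Of the bases in its merged exons, 4.67% are shared with Chdh, and reads there could have been counted for neither or either gene.

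Promoter sequences are shown for the 3 lower members, since these were the members called. RefSeq promoters (build GRCm38.p6) were matched for 9 of the 10 members, with 15 annotated starts among them, and the 250 bases before each start are considered. Counts per gene do not tell the starts apart. The windows were searched on both strands for the GC box GGGCGG, the TATA box TATAAA, the E-box CACGTG and the CRE half-site TGACG. A GC box was present in 8 of the 15 windows and in 32.7% of all 32851 promoter windows. TATAAA was present in 1 window (12.4% of all), CACGTG in 0 (6.02% of all) and TGACG in 3 (17.8% of all). In the windows of Cacna1d, capitals mark the GC box on either strand.
Cacna1d, first start (chr14:30491157-30491406, minus strand): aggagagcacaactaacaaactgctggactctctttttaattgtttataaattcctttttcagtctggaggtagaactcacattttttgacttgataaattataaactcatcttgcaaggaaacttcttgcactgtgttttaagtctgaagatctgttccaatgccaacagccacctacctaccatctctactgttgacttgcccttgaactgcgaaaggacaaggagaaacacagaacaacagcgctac
Cacna1d, second start (chr14:30353487-30353736, minus strand): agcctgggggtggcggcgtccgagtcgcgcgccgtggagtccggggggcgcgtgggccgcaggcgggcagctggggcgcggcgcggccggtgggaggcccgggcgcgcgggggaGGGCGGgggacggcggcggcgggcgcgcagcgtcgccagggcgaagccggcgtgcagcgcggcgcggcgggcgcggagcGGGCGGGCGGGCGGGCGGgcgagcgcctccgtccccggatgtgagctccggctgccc
The first start lies in a window of 39.6% GC that holds TATAAA and no GC box, and the second in a window of 86.4% GC with 5 GC boxes, against a median of 52.4% GC over all windows.

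Beta subunits held the clearest difference. Cacnb3, a beta subunit found with N-type and L-type channels of neurons, had 59.0, 58.3, 71.5 and 70.0 CPM in temperature-responsive replicates 1 to 4 and 102, 103 and 98.6 CPM in non-responsive replicates 1 to 3. The groups were well apart, with the highest temperature-responsive sample at 71.5 CPM and the lowest non-responsive sample at 98.6 CPM. Means were 64.7 ± 7.0 (SD, n = 4) and 101 ± 2.29 CPM (SD, n = 3), and the log2 fold change was -0.63 (SE 0.114, 95% interval -0.86 to -0.39, adjusted p = 0.000468 by edgeR), or 64.7% of the non-responsive level. The gene had 109 to 546 counts in a sample, well over the 3 counts taken as the floor, which equal 0.585 to 1.57 CPM. It stayed past the threshold in all 7 fits that left out 1 sample, with log2 fold changes between -0.67 and -0.58. Its merged exons share no bases with another gene. With a GC content of 60.55%, against a median of 49.4% over genes tested, Cacnb3 is the most GC-rich member, and a fit with an offset for GC content gave -0.45 (adjusted p = 0.00544). The windows before its starts, with GC boxes in capitals, are given for the same reason as those of Cacna1d.
Cacnb3, first start (chr15:98632078-98632327, plus strand): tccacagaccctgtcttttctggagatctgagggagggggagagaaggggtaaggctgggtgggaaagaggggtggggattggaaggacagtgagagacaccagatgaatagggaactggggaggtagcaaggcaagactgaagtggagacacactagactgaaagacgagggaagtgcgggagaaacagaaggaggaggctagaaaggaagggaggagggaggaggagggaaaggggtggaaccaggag
Cacnb3, second start (chr15:98634517-98634766, plus strand): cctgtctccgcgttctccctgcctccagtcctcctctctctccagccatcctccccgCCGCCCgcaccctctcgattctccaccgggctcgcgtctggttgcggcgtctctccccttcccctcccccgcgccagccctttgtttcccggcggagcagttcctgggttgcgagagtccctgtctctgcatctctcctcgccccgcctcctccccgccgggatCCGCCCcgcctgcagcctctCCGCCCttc
The first window has 56.0% GC and no GC box, and the second has 70.4% GC and 3 GC boxes.

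Cacnb4, the beta subunit whose loss causes ataxia and seizures in the lethargic mouse, did not follow Cacnb3. Its values were 461, 406, 365 and 335 CPM in temperature-responsive and 326, 357 and 336 CPM in non-responsive samples. Temperature-responsive replicates 1, 2 and 3 lay above all non-responsive samples and replicate 4 lay among them. The log2 fold change was 0.21 (95% interval -0.01 to 0.43, adjusted p = 0.133 by edgeR), and it turned to -0.03 with an offset for GC content, the content of this gene being 41.18%. Without temperature-responsive replicate 1 it was 0.12. Of its exon bases 15.99% are shared with A430018G15Rik, a symbol outside the count files.

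Within each sample, the ratio of Cacnb3 to Cacnb4 does not depend on how the libraries were scaled. Cacnb3 amounted to 12.8, 14.4, 19.6 and 20.9% of the Cacnb4 count in temperature-responsive replicates 1 to 4 and to 31.2, 28.9 and 29.4% in non-responsive replicates 1 to 3. The groups did not overlap. Per length of merged exons, Cacnb3 made up 27.2 ± 4.66% (SD, n = 4) of both beta members together in the responsive group and 40.0 ± 0.961% (SD, n = 3) in the other, and Cacnb4 the rest. The sum of both was 59.8 ± 4.73 (SD, n = 4) and 63.1 ± 2.09 CPM per kb (SD, n = 3) with overlapping ranges. Cacnb1 and Cacnb2 are not part of these sums and shares. They had means of 37.0 and 66.9 CPM in the responsive group and 52.9 and 62.0 CPM in the other. The ratio and the shares are given as a description, with no test, and overlap was not counted over other pairs of genes. The ratio does depend on corrections made gene by gene, since both genes differ in GC content (60.55% and 41.18%) and fold changes over all genes fell with GC content (Spearman's rho -0.336 across 13745 genes, which are not independent replicates). An offset for GC content brought the difference between their log2 fold changes from -0.84 to -0.41.

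**Figure D2:**
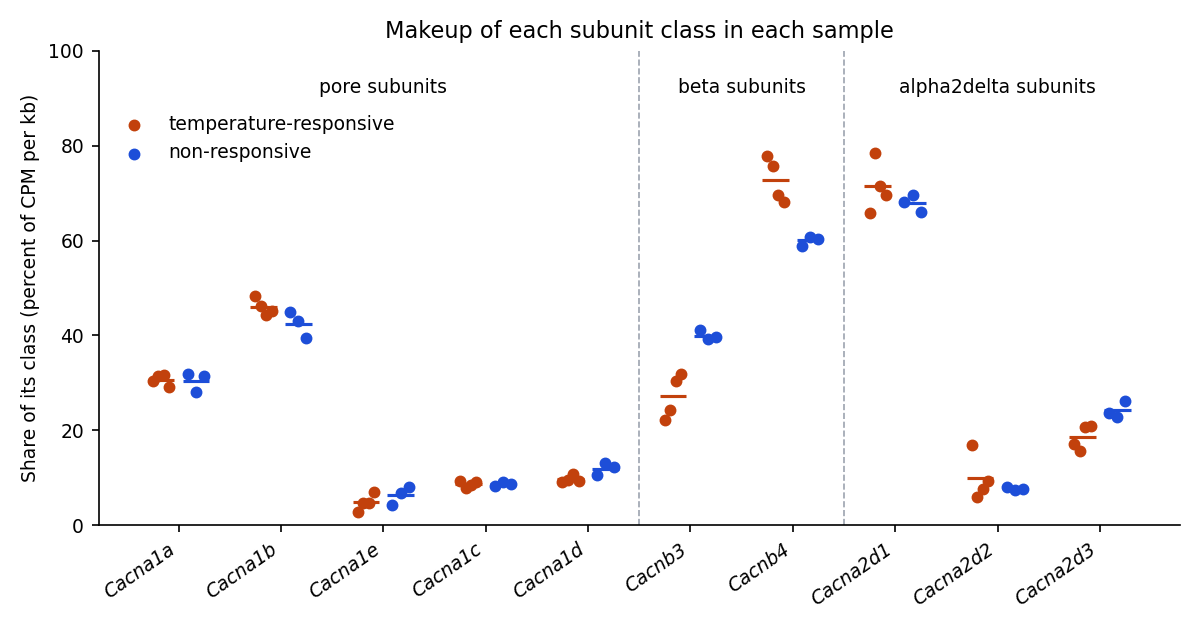
Share of each gene in the summed level of the members of its class (percent of CPM per kb of merged exons), with dashed lines between pore, beta and alpha2delta members, 4 temperature-responsive samples in orange, 3 non-responsive samples in blue and lines at the means. Other subunit genes, Cacnb1 and Cacnb2 among them, are not in the sums. Cacnb3 and Cacnb4 are the pair whose shares lie farthest apart between groups, at 27.2 and 40.0% for Cacnb3.

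Among the alpha2delta members, Cacna2d1, a binding site of gabapentin, had 277, 461, 430 and 357 CPM in temperature-responsive and 369, 366 and 378 CPM in non-responsive samples. The temperature-responsive samples lay on both sides of the narrow non-responsive range, and the log2 fold change of 0.05 (95% interval -0.21 to 0.31, adjusted p = 0.806 by edgeR) turned negative under several alternatives. Cacna2d2, which also binds gabapentin, had 45.5, 22.5, 29.4 and 30.8 CPM against 28.2, 25.1 and 28.1 CPM. The temperature-responsive group held both the highest and the lowest sample, and the log2 fold change was 0.25 (95% interval -0.14 to 0.65, adjusted p = 0.337 by edgeR), or 0.04 without temperature-responsive replicate 1.

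Cacna2d3, an alpha2delta subunit with little or no binding of gabapentin, had 50.7, 64.2, 87.4 and 75.3 CPM in temperature-responsive and 89.7, 83.9 and 105 CPM in non-responsive samples. Temperature-responsive replicate 3 lay above non-responsive replicate 2, and the other 3 temperature-responsive samples lay below all non-responsive ones. Means were 69.4 ± 15.7 (SD, n = 4) and 93.0 ± 11.2 CPM (SD, n = 3), with a log2 fold change of -0.40 (SE 0.142, 95% interval -0.69 to -0.11, adjusted p = 0.0346 by edgeR). The call was lost without temperature-responsive replicate 1 (-0.28, adjusted p = 0.104), without temperature-responsive replicate 2 (-0.36, adjusted p = 0.101) and without non-responsive replicate 3 (-0.30, adjusted p = 0.180). It was also lost with DESeq2 (-0.40, adjusted p = 0.0533), with upper quartile normalization (-0.33, adjusted p = 0.0798) and after all samples were drawn down to the lowest total (-0.27, adjusted p = 0.168). As a share of Cacna2d1 in the same sample, Cacna2d3 stood at 18.3, 13.9, 20.3 and 21.1% in temperature-responsive and 24.3, 22.9 and 27.9% in non-responsive samples, without overlap. This share is a description, with no test, and overlap was not counted over other pairs of genes. Cacna2d1 itself ranged from 277 to 461 CPM in temperature-responsive samples. The window before the start of Cacna2d3 has 80.0% GC and holds 4 GC boxes, in capitals.
Cacna2d3 (chr14:29721865-29722114, minus strand): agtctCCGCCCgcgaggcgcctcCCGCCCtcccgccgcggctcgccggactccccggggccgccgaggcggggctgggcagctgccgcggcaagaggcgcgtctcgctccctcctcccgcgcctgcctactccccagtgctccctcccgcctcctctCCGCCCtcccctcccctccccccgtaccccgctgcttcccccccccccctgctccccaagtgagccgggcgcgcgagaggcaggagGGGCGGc

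**Figure D3:**
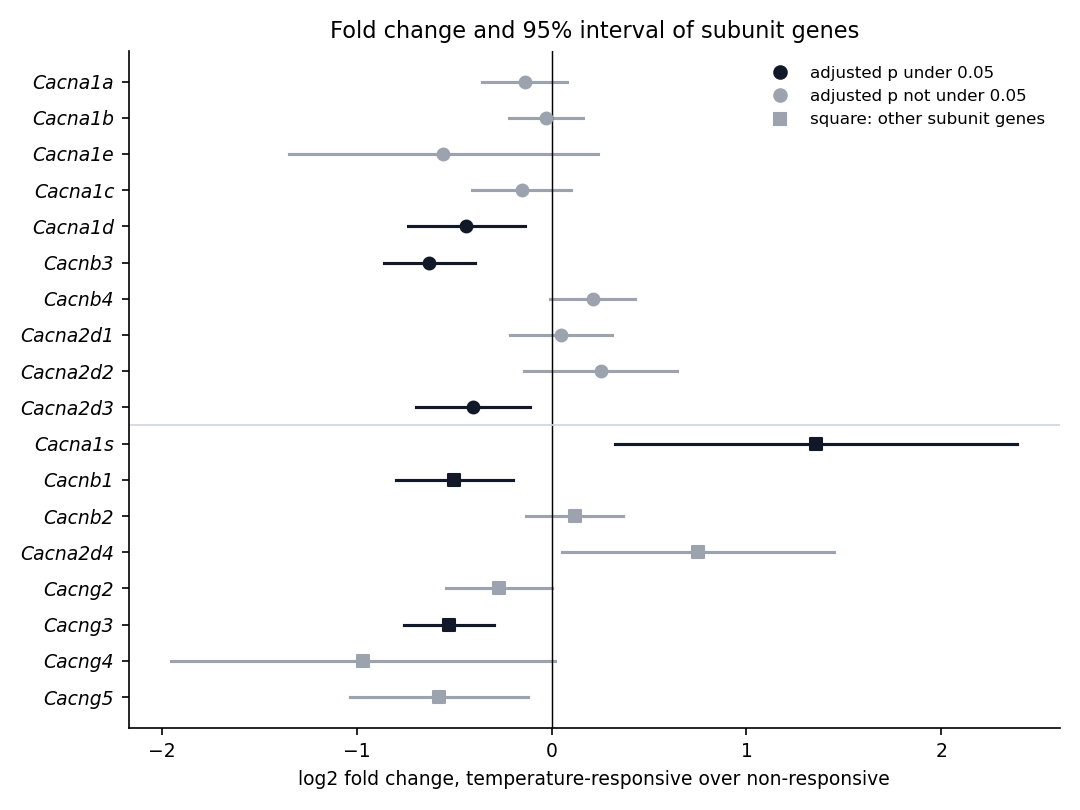
Log2 fold changes (temperature-responsive over non-responsive) with 95% intervals for the 10 members (circles) and the 8 other subunit genes tested (squares), in black where the adjusted p was under 0.05. Cacna1d, Cacnb3, Cacna2d3, Cacnb1 and Cacng3 are the black points left of 0 and Cacna1s, at 5 to 30 counts, the black point to its right.

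Single samples were often the extreme across members, which was not counted over all genes tested and may not be particular to this family. Temperature-responsive replicate 1 was the lowest of the 7 samples for 6 members, namely Cacna1a, Cacna1b, Cacna1e, Cacna1d, Cacna2d1 and Cacna2d3, and the highest for 2, Cacnb4 and Cacna2d2. Non-responsive replicate 3 was the highest for 5 members. Leaving out either sample left 1 member past the threshold, as did leaving out temperature-responsive replicate 2, and Cacnb3 was that member in each case.

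Levels between genes were compared per kb of merged exons. Cacnb4 came first at a mean of 41.2 CPM per kb over the 7 samples, followed by Cacna2d1 at 30.3, Cacnb3 at 20.0, Cacna1b at 15.2, Cacna1a at 10.5 and Cacna2d3 at 9.12. Lower levels were seen for Cacna2d2 at 3.77, Cacna1d at 3.70, Cacna1c at 2.98 and Cacna1e at 1.92 CPM per kb. Both beta members, Cacnb3 and Cacnb4, and Cacna2d1 thus had higher means per kb than any pore gene, with Cacnb3 above Cacna1b in 6 of 7 samples. Over the 7 samples, only Cacna1b and Cacna1a, and Cacna2d3 and Cacna2d2, were neighbours in this order with ranges that did not overlap. Cacna2d2 and Cacna1d could not be ordered, the first being above the second in 3 of 7 samples. Division by the longest transcript in place of merged exons put Cacna2d1 first at 50.7 and Cacnb4 second at 44.9 CPM per kb and raised Cacna2d3 to 21.5, above Cacna1b at 15.5, so the order depends on which isoforms are counted. L-type pores made up 18.5 ± 0.734% (SD, n = 4) of the summed pore level in the responsive group and 20.7 ± 1.70% (SD, n = 3) in the other, with overlapping ranges, and Cacna1b held 46.0 ± 1.71% and 42.5 ± 2.81%. By the longest transcript Cacna1b and Cacna1a were close, at 37.3 and 35.1% in the responsive group and 34.0 and 34.3% in the other.

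The remaining genes of high-voltage channels gave 13 more symbols, of which 8 were tested, 1 was higher, 2 were lower and 5 were not called, with a median log2 fold change of -0.39. The 3 calls are 37.5% of those tested, against 30.0% of all genes. Cacnb1, a beta subunit of skeletal muscle and brain, had 33.0, 32.1, 43.5 and 39.2 CPM in temperature-responsive and 49.2, 54.0 and 55.5 CPM in non-responsive samples. Its groups did not overlap (log2 fold change -0.50, SE 0.146, adjusted p = 0.0120 by edgeR), although an offset for GC content, 59.37% in this gene, ended the call (-0.35, adjusted p = 0.0720). Cacnb2, the beta subunit best known from heart, had 64.2 to 69.2 CPM against 58.1 to 65.4 CPM (log2 fold change 0.12, adjusted p = 0.483). Of the 4 beta genes, Cacnb1 and Cacnb3 were thus lower, Cacnb1 not with the GC offset, while Cacnb2 and Cacnb4 were not called.

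The gamma genes are named for a subunit of muscle channels, but several of them, Cacng2 and Cacng3 among them, serve mainly as auxiliary subunits of AMPA-type glutamate receptors in neurons. Cacng3 had 69.2, 59.9, 61.0 and 65.5 CPM in temperature-responsive and 91.2, 94.3 and 92.0 CPM in non-responsive samples. These groups were well apart (log2 fold change -0.53, SE 0.113, adjusted p = 0.00147 by edgeR), and the call held in 19 of 20 alternatives. Cacng2, which is mutated in the stargazer mouse, stood at -0.27 on the log2 scale (adjusted p = 0.120), and Cacng5 had -0.58 (adjusted p = 0.0504) with groups that did not overlap, at 10.2 to 14.4 and 17.3 to 20.0 CPM. The 2 to 28 counts of Cacng4 also left no overlap (log2 fold change -0.97, adjusted p = 0.128). Cacng1, Cacng6, Cacng7 and Cacng8 had at most 14 counts and were not tested.

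Genes of channels known from muscle and retina had few counts. Cacna1s, the L-type pore of skeletal muscle, was called higher at 5 to 30 counts, with 3.72, 16.1, 6.17 and 9.10 CPM against 4.50, 4.72 and 1.00 CPM. The groups overlapped (log2 fold change 1.36, SE 0.499, adjusted p = 0.0428 by edgeR), and 19.98% of its exon bases are shared with Gm37759. The call was lost without temperature-responsive replicate 2 (0.94, adjusted p = 0.207), without temperature-responsive replicate 4 (1.34, adjusted p = 0.0791) and without non-responsive replicate 3 (0.89, adjusted p = 0.174), and the sign turned with the count of detected genes as covariate (-0.61, adjusted p = 0.743). Cacna1f, the L-type pore of photoreceptors, had 5 to 18 counts, with 2.79 to 6.30 CPM in temperature-responsive and 0.944 to 2.40 CPM in non-responsive samples, and was not tested. Cacna2d4, an alpha2delta subunit of retina, had 17 to 33 counts (log2 fold change 0.75, adjusted p = 0.0963). The temperature-responsive samples were also those with more olfactory receptor transcripts, at 345 to 817 CPM against 45.2 to 251 CPM, and the part of this in the values of these low genes was not tested.

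Partners that bind or regulate the channels numbered 32, of which 30 were among the gene symbols, 29 were tested, 6 were higher and 3 lower, with a median log2 fold change of -0.01. The 9 calls are 31.0% of those tested, against 30.0% of all genes, and their split was 9 higher and 3 lower with upper quartile normalization, 3 and 3 with library size only and 4 and 4 with the GC offset. Calcium sensors moved in both directions. Calm2, which encodes the calmodulin that gives the channels their calcium-dependent inactivation, was higher by 0.79 on the log2 scale (adjusted p = 0.00114 by edgeR), at 335 to 493 CPM against 200 to 299 CPM, without overlap. Its counts before scaling were nearly level, at 942, 921, 965 and 956 in temperature-responsive and 998, 1061 and 1034 in non-responsive samples, whose library totals were higher. After all samples were drawn down to the lowest total, its log2 fold change was 0.80 (adjusted p = 0.000566 by edgeR). That draw scales all genes of a sample alike and so keeps such a fold change. It cannot tell why the counts were level. The part of the removal of duplicates in the difference was not tested. Calm3 had 0.22 (adjusted p = 0.110). Cabp1, a calmodulin-like protein that competes with calmodulin on the pore, had 31.6, 26.2, 46.1 and 53.9 CPM in temperature-responsive and 67.8, 85.9 and 81.0 CPM in non-responsive samples. All temperature-responsive samples lay lower (log2 fold change -0.95, SE 0.174). Calm2 has near-identical copies in the genome, and how reads were shared with them was not stated.

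Rims1, an active zone scaffold that holds release-site channels near vesicles, was the member of its subset of 5 that was lower (log2 fold change -0.73, adjusted p = 0.0128), at 11.8 to 23.1 CPM against 22.5 to 37.6 CPM. Its adjusted p was 0.0570 without temperature-responsive replicate 2, 0.0510 without non-responsive replicate 2 and 0.0888 without non-responsive replicate 3. Its paralog Rims2 had -0.02. Gem, a small GTPase that inhibits channels by binding their beta subunit, was higher by 0.54 on the log2 scale (adjusted p = 0.0380), at 35.3 to 68.0 CPM against 32.9 to 42.3 CPM. Calcineurin, the phosphatase that the anchoring protein Akap5 holds at L-type channels, had 1 gene called, Ppp3cb, which was higher by 0.40 (adjusted p = 0.00523), while Ppp3ca and Ppp3r1 had 0.23 each, with groups that did not overlap and adjusted p values of 0.0759 and 0.0732. Of the CaM kinase II genes, whose product potentiates L-type current, Camk2b was lower (-0.34, adjusted p = 0.0102) and Camk2d higher (0.25, adjusted p = 0.0436). Among the G protein genes, whose beta-gamma dimers inhibit N- and P/Q-type channels, Gng3 was higher (0.27, adjusted p = 0.0458) and the other 6 were not called. Gem, Gng3 and Camk2d passed the threshold in 11, 10 and 8 of 20 alternatives, Camk2d being at -0.03 with the GC offset. Ppp3cb, which passed in 16, lost its call with the GC offset. Camk2b passed in 17. Its call was lost without temperature-responsive replicate 2, without non-responsive replicate 3 and with the count of detected genes as covariate.

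Each member was refitted under 20 alternatives, shown in the plot of fold changes under alternatives. Cacnb3 passed the threshold in 19 of them, with log2 fold changes between -0.72 and -0.45, and Cacna1d and Cacna2d3 in 13 each, between -0.53 and -0.24 and between -0.60 and -0.27. All 3 kept their direction in all 20. When the count of detected genes entered the model as covariate, none of the 3 passed (Cacnb3 -0.68 with an adjusted p of 0.133, Cacna1d -0.24 with 0.714, Cacna2d3 -0.34 with 0.558). That number did not overlap between the groups, and with it in the model 1 of all genes tested was called.

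**Figure D4:**
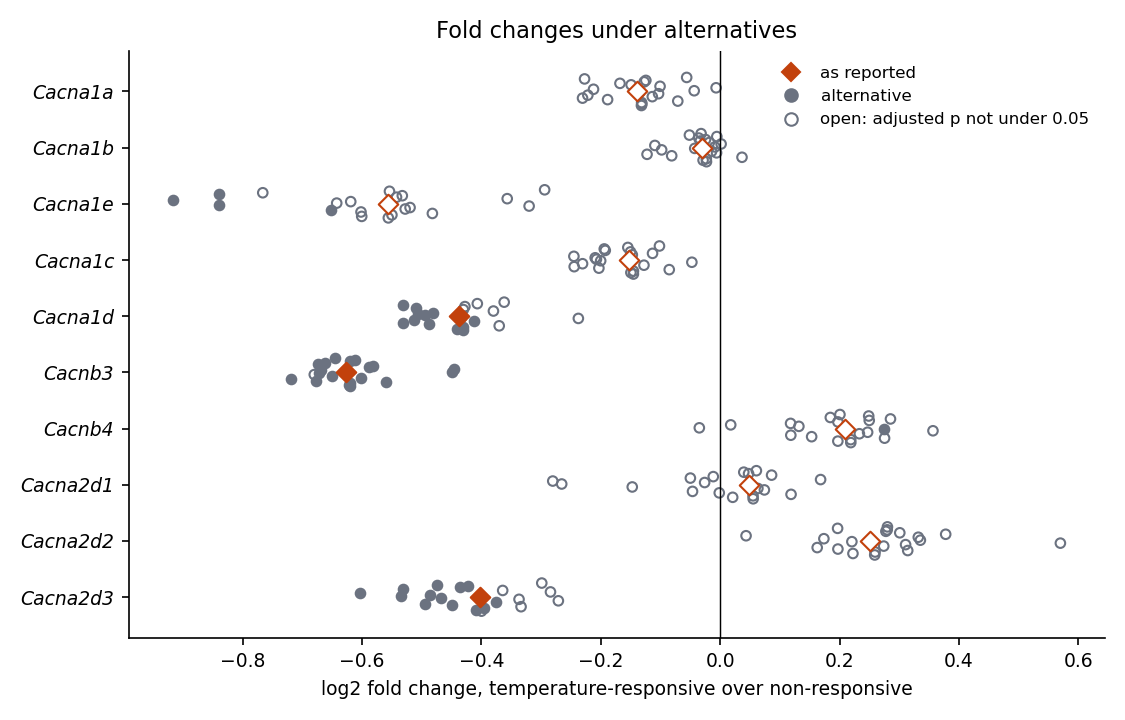
Log2 fold changes of the 10 members as reported (orange diamonds, filled where the adjusted p was under 0.05) and under 20 alternatives (grey circles, open where it was not), the vertical spread of the circles having no meaning. Cacnb3 stays left of 0 between -0.72 and -0.45, and Cacna2d1 lies on both sides of 0.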

How the data were processed

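The labels and the methods give 4 temperature-responsive and 3 non-responsive samples of 2 pooled neurons each. The kit used for amplification carries no molecular identifiers. Per the submitters' processing notes, the tools were FastQC 0.72, STAR 2.6.0 and HTSeq 0.9.1 with the genome build mm10, and the methods add removal of duplicates with RmDup, which can also remove distinct molecules of abundant genes. The authors deposited whole-number read counts per gene symbol, not normalized. The annotation and the strand setting of the counting are not given in the sources used here, which leaves genes that share exon bases uncertain.

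From these counts, 14407 of 24062 genes reached 10 counts in 3 or more samples and entered the 2-sided quasi-likelihood test of edgeR 4.0.16 (R 4.3.3) with TMM normalization and Benjamini-Hochberg adjustment over all of them at a threshold of 0.05. Standard errors and 95% intervals came from the same fit. CPM were computed from the TMM-scaled totals. The fit was tested on simulated counts with 200 changed genes. DESeq2 1.42.0 and limma 3.58.1 were alternatives, mgcv 1.9.3 made the GC and length offsets, and other normalizations, filters, a draw-down to the lowest total, a covariate, a block for the replicate number and the removal of single samples were also tried. Exon lengths, GC content and coordinates came from GENCODE M21, in which 94.5% of the symbols were found.

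The members and gene lists were chosen with earlier results of these data known. All 10 members were named, other subunits with at least 3 counts in every sample or past the threshold, and of each subset of partners at most 2 called genes in each direction; others named were chosen after their values were seen, and 1 partner gene that this rule names is not reported here. Totals ranged from 1914497 to 5125280 counts. Pairs of samples of a group differed beyond counting noise (ratio of chi-square to its degrees of freedom 1.94 to 5.36 over 12220 genes). Nothing states that the samples came from separate animals, so p-values measure the spread between these samples, and floors cover counting error only.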

Additional observations from a re-analysis of the deposited data

How the results depend on the processing

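Of 200 refits of the members' fold changes, 169 kept their direction and their side of the threshold, 15 lost and 5 gained a call, and 11 changed sign. The number of members past the threshold (3 as reported) was 1 with upper quartile normalization, 0 with the number of genes detected as covariate (edgeR, 1 with an unadjusted p under 0.05) and 1 to 3 when 1 sample was left out. With that covariate, 1 gene of all tested, 0 other subunits (1 at an unadjusted p under 0.05) and 0 partners (4 at an unadjusted p under 0.05) passed, against 4327, 3 and 9 as reported. Retaining all genes with at least 1 count gave 5 other subunits. When 1 sample was left out, between 2620 and 4583 of all genes passed, the lowest without non-responsive replicate 3, and between 3 and 14 partners, the lowest without non-responsive replicate 3 (5 without non-responsive replicate 2, 4 without temperature-responsive replicate 2) and the highest without non-responsive replicate 1. Cacna2d1 (0.05 as reported) was -0.0015 with library size only, -0.0463 with all genes of at least 1 count, -0.15 with the covariate, -0.27 with the GC offset, -0.026 with the length offset and between -0.0499 and 0.168 when 1 sample was left out, negative without temperature-responsive replicates 2 and 3. Cacnb4 was -0.0349 with the GC offset, and Cacna1b 0.0366 with upper quartile normalization. The cause was not tested.

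Same-numbered samples of the groups did not deviate together (correlations -0.128, -0.0618 and 0.0316), and 0 of 6 samples correlated best with their own number. With so few samples, these correlations cannot tell whether same-numbered samples shared an animal, a slice or a day. With the replicate number as a block, 5 members passed, 1 higher and 4 lower, Cacnb4 (0.27) and Cacna1e (-0.84) being added. With the block and the GC offset together, Cacna1b was 0.0016 and Cacna2d1 -0.28. Levels per kb moved by more than the spread of the samples for 17 of 90 refits and class shares for 32 of 110, all of them upon a change of gene length. No member's values in the 4 temperature-responsive samples met the criterion for an outlier.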
